A study of Rattus norvegicus with 24 samples.

Results

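Genes of the motile cilium were followed across 24 arrays of rat left dorsal striatum. They were the genes whose array name starts with Dnah, Dnai, Dnal, Cfap, Rsph, Tekt or Spag, together with Foxj1, Nme9, Tmem212 and Fam166b. Of 50 such genes, 36 were kept because a probe was well above background on at least 50% of the arrays of some group, out of 20902 genes kept in all. The 14 genes that were not kept were Cfap46, Cfap47, Cfap61, Dnah5, Dnah7, Dnah17, Dnai2, Rsph3, Spag6l, Spag11a, Spag11bl, Spag16, Tekt3 and Tekt5. Among the 36, 7 Spag genes (Spag1, Spag4, Spag5, Spag7, Spag8, Spag9 and Spag11b) were set apart, and the other 29 are called the ciliary members. Of these 7, Spag8 has been described inside the doublet microtubules of motile cilia, so values with Spag8 counted as a ciliary member are given beside the main ones, an alternative chosen after the values were seen.

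The arrays compared male Long Evans rats, 80 to 90 days old, given 1 injection on each of 5 days. The saline group had saline throughout, the acute group had saline on 4 days and MDPV (methylenedioxypyrovalerone, an inhibitor of dopamine and noradrenaline uptake) on the last, and the chronic group had MDPV on all 5 days, at 1 mg/kg. Tissue was collected 24 h past the final injection and the left dorsal striatum was cut out by hand, so an array reports a piece of tissue and not a sorted cell type. There were 8 arrays per group on 3 slides, while the series design states 6 per group. Arrays with a shared title letter from A to F were therefore averaged for the group comparisons. Arrays titled with the letter H each stood alone, which gave 6 units per group. Nothing in the labels ties a unit to 1 rat, so p-values measure the spread between units.

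Motile cilia are beating organelles built on a ring of doublet microtubules around a central pair. Outer and inner dynein arms walk along the doublets, radial spokes pass signals from the central pair to the arms, tektins lie along the doublets, and the forkhead factor Foxj1 switches on the genes that encode these parts. In the forebrain, the ependymal cells that line the ventricles, next to the dorsal striatum, carry many such cilia. The choroid plexus, which hangs in the ventricles, makes transthyretin, the product of Ttr, in very large amounts.

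A level below is the log2 processed signal of a probe minus the array's 75th percentile of the same quantity, so that 0 is the 75th percentile and each step of 1 is a doubling. Between 50.7% and 71.3% of the 58717 spots for genes were well above background on an array, and none was saturated. Ppp1r1b (DARPP-32), a marker of striatal projection neurons, was well above background on all 24 arrays at levels from 3.10 to 5.72. The ependymal origin in the name of the gene set was not measured. A list of 16 genes was assigned to ependyma outside the cilium, and Aqp4 of this list is also on the astrocyte list. The list is thus not exclusive to ependyma. Of the 16 genes 14 were kept. Their mean correlated with the mean of the ciliary members at r = 0.749 (rho = 0.735) over 24 arrays that share slides and scaling, and with Ttr, made by the choroid plexus, at r = 0.351. One by one, 4 of the 14 had r above 0.5 with the ciliary mean (Vim 0.638, Kcnj16 0.631, Nnat 0.571 and Aqp4 0.529), against 8.29% of all genes, and 3 had r below 0, against 59.5%. Their summed signal, in multiples of the array's 75th percentile, ranged from 41.0 to 61.2 in saline, 41.3 to 48.1 in acute and 36.7 to 45.9 in chronic. An r of this size was not particular to the ependymal list. Means of lists described below had r of 0.840 (proliferation), 0.743 (choroid plexus, with Ttr on the list) and 0.665 (thalamus or septum) with the ciliary mean. Lists of other cell types lay between -0.543 (cortical neurons) and 0.117 (oligodendrocytes). Fewer cells of a type and less RNA per cell cannot be told apart in such tissue pieces.

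The sequences that matter most here are those of the 60-base probes where 2 probes of 1 gene went different ways, because they decide what is read as Foxj1 and as Dnah10. They are shown as the array annotation gives them, in lower case, and the array's rn4 coordinates place neither Foxj1 probe.
Foxj1 probe of higher mean: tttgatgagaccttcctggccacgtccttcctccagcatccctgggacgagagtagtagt
Foxj1 second probe: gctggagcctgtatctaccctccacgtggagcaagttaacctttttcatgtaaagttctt
Dnah10 probe of higher mean: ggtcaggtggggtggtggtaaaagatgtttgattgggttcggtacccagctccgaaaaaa
Dnah10 second probe: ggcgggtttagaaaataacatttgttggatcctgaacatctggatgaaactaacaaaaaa
The Dnah10 probes lie at chr12:32925071-32925130 and chr12:32924226-32924285 of rn4, beside a probe of Ccdc92 at chr12:32923964-32924023. Exon and UTR annotation of rn4 was not used here.

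Promoters were searched because many members moved together. All ciliary members with a window were counted, also those that did not follow the mean of the others. In the 250 bases before the start of each RefSeq gene (build GRCr8), the X-box of RFX factors, searched as GTNNCC, then any 3 bases, then GNAAC, on both strands, was found for 3 of 24 ciliary members with a window (12.5%), against 1.79% of 27457 genes. RFX factors are regulators of ciliary genes. The windows of Cfap44, Dnah12 and Spag6 are shown 5′ to 3′ on the strand of the gene, with the match, which reads as the X-box on the opposite strand, in capitals.
Cfap44, chr11:69789906-69790155, minus strand: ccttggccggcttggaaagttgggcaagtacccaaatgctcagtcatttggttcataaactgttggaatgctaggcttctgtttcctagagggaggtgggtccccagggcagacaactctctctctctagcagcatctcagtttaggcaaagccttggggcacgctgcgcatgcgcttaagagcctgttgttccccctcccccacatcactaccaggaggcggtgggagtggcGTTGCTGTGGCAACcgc
Dnah12, chr16:1944502-1944751, plus strand: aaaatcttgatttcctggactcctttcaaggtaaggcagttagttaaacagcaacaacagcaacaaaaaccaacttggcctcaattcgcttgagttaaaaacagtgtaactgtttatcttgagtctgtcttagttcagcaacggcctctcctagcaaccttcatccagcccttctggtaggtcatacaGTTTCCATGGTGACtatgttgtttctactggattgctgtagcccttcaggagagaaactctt
Spag6, chr11:97677590-97677839, plus strand: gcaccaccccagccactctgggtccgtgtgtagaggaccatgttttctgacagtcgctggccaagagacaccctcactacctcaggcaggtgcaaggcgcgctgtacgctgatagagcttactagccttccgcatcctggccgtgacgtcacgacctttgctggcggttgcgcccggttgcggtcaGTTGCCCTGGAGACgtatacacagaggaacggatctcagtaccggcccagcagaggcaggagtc
The matches begin 17, 62 and 64 bases before the start. The shorter motif GTTGCC, which can overlap the X-box, was found for 9 of the 24 members (37.5%) against 10.8% of genes. The forkhead motif GTAAACA was found for 3 (12.5%, Cfap20, Cfap43 and Dnali1) against 3.54% of genes. Their r with the mean of the other ciliary members was -0.384, -0.455 and 0.957. A match is a run of letters and no measured binding site. Cfap52, Dnah3, Fam166b, Foxj1 and Rsph1 had no window. The accession that the array calls Spag6 is named Spag6l in RefSeq, and 27 of the 36 members had an accession that matched RefSeq.

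The ciliary members differed widely between arrays. Their median SD over 24 arrays was 0.827, against 0.278 for all genes, and 18 of the 29 were among the 5% of genes with the highest SD. Each member was also set against genes whose mean lay within 0.5 of its own, and 26 of 29 lay above the median SD of such genes. Only 10 of the ciliary members were above background on every array, and in the analysis kept to such genes their median SD was 0.347. The 7 other Spag genes had a median SD of 0.288. With Spag8 moved to the ciliary members the medians were 0.867 over 30 genes and 0.269 over the remaining 6. Ttr had an SD of 4.41.

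**Figure D1:**
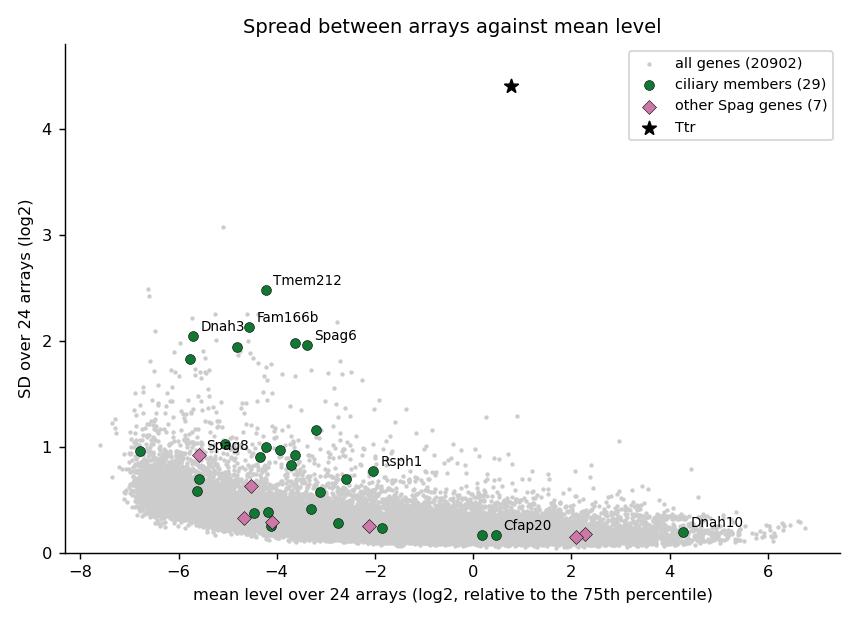
SD over 24 arrays (log2) against mean level (log2, relative to the 75th percentile of the array) for all 20902 genes in grey, the 29 ciliary members as circles, the 7 other Spag genes as diamonds and Ttr as a star. Tmem212 has the highest SD of the members (2.48) and Cfap20 and Dnah10 lie below the median of all genes (0.166 and 0.196 against 0.278).

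The first principal component of the 29 ciliary members held 81.7% of their variance. Values were centred but not scaled, so this share mostly reflects the members of large SD. The largest were Tmem212, Fam166b and Dnah3 (SD 2.48, 2.13 and 2.04), above background on only 17, 17 and 13 arrays. Over the 406 pairs of ciliary members the median Pearson r was 0.274, against 0.022 over all pairs of genes, and 43.3% of the pairs had r above 0.5. Over the 10 ciliary members above background on every array the median pairwise r was -0.037. Each member was then set against the mean of the other ciliary members over the 24 arrays: 18 had r above 0.75, 10 had r below 0.5 and 5 of those were below 0. These are descriptions over arrays that share slides and scaling. The 7 other Spag genes had a median pairwise r of -0.0739, though Spag8 (r = 0.758) and Spag1 (r = 0.570), a factor for the assembly of dynein arms in the cytoplasm, followed the ciliary mean. With Spag8 moved, the median pairwise r was 0.297 over the ciliary members and -0.0954 over the other 6.

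**Figure D2:**
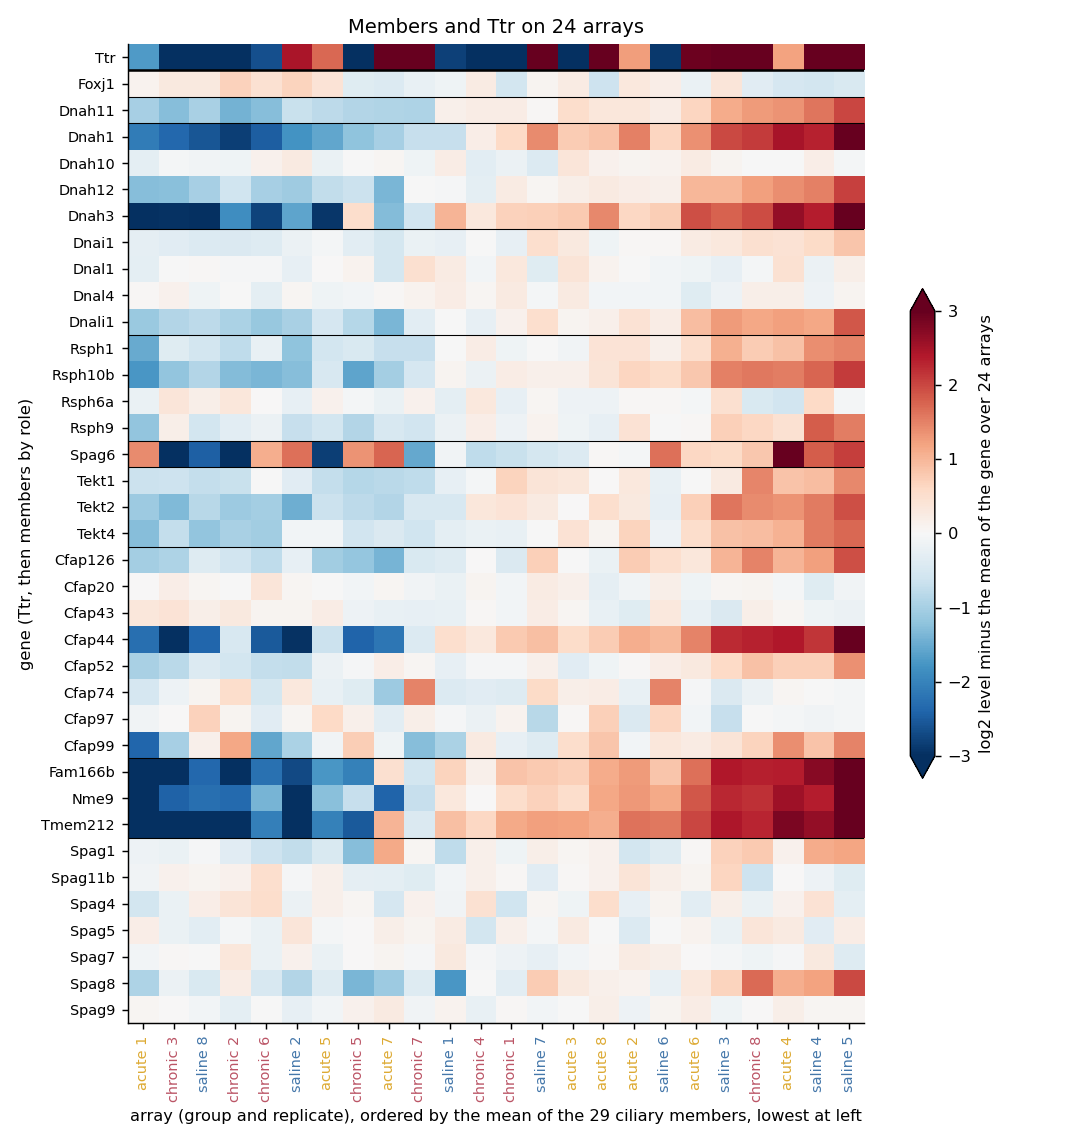
Levels of Ttr and the 36 members, as log2 deviations from the mean of each gene over 24 arrays (blue below, red above, colours end at -3 and 3). Arrays run from the lowest mean of the 29 ciliary members at left (acute replicate 1) to the highest at right (saline replicate 5), and horizontal lines separate the roles. Dnal4, Cfap20 and Dnah10 stay pale throughout (SD 0.166, 0.166 and 0.196).

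The mean of the 29 ciliary members, called the ciliary level, ran from -4.65 on acute replicate 1 to -2.04 on saline replicate 5. In the saline group its lowest, median and highest values over 8 arrays were -4.40, -3.17 and -2.04. The acute group had -4.65, -3.22 and -2.42. The chronic group had -4.64, -3.95 and -2.56. All 3 groups overlapped over most of their range, and groups accounted for 11.6% and slides for 14.9% of the variance of the ciliary level over arrays. Arrays of a shared letter could lie far apart: saline replicates 2 and 5 had -4.28 and -2.04, and chronic replicates 6 and 8 had -4.30 and -2.56, while chronic replicates 2 and 5 had -4.38 and -4.06.

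Tmem212, Fam166b and Nme9, each named singly by the rule, were among the most variable genes of all. Tmem212, which encodes a transmembrane protein, was well above background on 17 arrays and had lowest, median and highest levels of -8.00, -2.83 and -0.92 in saline, -7.33, -3.07 and -1.41 in acute and -8.88, -5.46 and -1.93 in chronic. Fam166b, also above background on 17 arrays, had -7.26, -3.76 and -1.17 in saline, -8.21, -3.64 and -2.20 in acute and -7.98, -5.85 and -2.23 in chronic. Nme9, a gene of the nucleoside diphosphate kinase family, was above background on 22 arrays, with -6.79, -2.71 and -0.36 in saline, -7.11, -2.78 and -1.08 in acute and -6.05, -4.31 and -1.42 in chronic. In all of these the groups overlapped, the chronic median was the lowest, and saline replicate 5 had the highest level of the 24 arrays. Low ends that are not above background carry no order. Pairwise, the median r among them was 0.933.

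Heavy chains of the dynein arms, the motors of the axoneme, followed the same order of arrays apart from Dnah10. Dnah11, of the outer arm, had -5.17, -4.02 and -2.20 in saline, -5.20, -3.87 and -2.86 in acute and -5.63, -5.11 and -2.93 in chronic, and it correlated with the other ciliary members at r = 0.971. Dnah3, of the inner arm, had the largest SD of its role (2.04), with -8.69, -4.83 and -2.46 in saline, -9.47, -5.00 and -3.06 in acute and -8.67, -5.83 and -3.74 in chronic, and was above background on 13 arrays. The inner-arm chains Dnah1 (r = 0.970, above background on 12 arrays) and Dnah12 (r = 0.960, above background on 23) went with it. Dnah10 stayed between 3.86 and 4.63 on every array, with an SD of 0.196 and r = 0.229.

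Intermediate and light chains, which dock and regulate the motors, made up a variable and a steady set. Dnali1, a light intermediate chain of the inner arm, had -4.62, -3.27 and -1.78 in saline, -5.00, -3.52 and -2.41 in acute and -4.77, -4.23 and -2.47 in chronic (r = 0.957 with the other members). Dnai1, an intermediate chain of the outer arm, moved over a narrower range, -4.99 to -3.64, but in the same order of arrays (r = 0.877). Dnal4, the brightest of the role, had 0.02, 0.11 and 0.41 in saline, -0.18, 0.17 and 0.45 in acute and -0.11, 0.27 and 0.47 in chronic (r = 0.037). Dnal1, a light chain of the outer arm, had -4.48, -4.24 and -3.87 in saline, -4.64, -4.11 and -3.66 in acute and -4.19, -4.14 and -3.64 in chronic (r = 0.193). These steady chains did not share the order of arrays.

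Of the radial spoke heads, Rsph10b had the largest SD (1.15), with -4.47, -2.86 and -1.09 in saline, -4.94, -2.93 and -1.67 in acute and -4.77, -4.04 and -1.62 in chronic. Rsph1, above background on all 24 arrays, had -3.23, -1.96 and -0.54 in saline, -3.54, -1.89 and -1.16 in acute and -2.79, -2.33 and -1.27 in chronic. Their r with the other members was 0.970 and 0.917, and that of Rsph9 was 0.799. Rsph6a, a spoke head protein known from sperm, had -3.05, -2.70 and -2.16 in saline, -3.32, -2.90 and -2.62 in acute and -3.20, -2.67 and -2.38 in chronic, with an SD of 0.286 and r = -0.133.

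The tektins, filament proteins of the doublets, varied together, with a median pairwise r of 0.861 over 3 genes. Tekt4 was above background on all 24 arrays and had -4.87, -3.76 and -1.97 in saline, -4.99, -3.44 and -2.67 in acute and -4.74, -4.29 and -2.78 in chronic. Tekt2, above background on 17 arrays, had -6.51, -5.04 and -3.12 in saline, -6.14, -4.89 and -3.71 in acute and -6.38, -5.68 and -3.63 in chronic. Spag6, a protein of the central pair, had an SD of 1.96 but followed the other members less closely (r = 0.460). Its levels were -5.84, -2.26 and -1.30 in saline, -6.21, -3.05 and -0.24 in acute and -8.40, -4.09 and -2.02 in chronic.

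Cilia and flagella associated proteins were mixed. Cfap44, part of the complex that tethers dynein heads, had an SD of 1.94 and was above background on 18 arrays. Its levels were -7.78, -3.87 and -1.67 in saline, -7.07, -4.16 and -2.40 in acute and -8.20, -5.26 and -2.50 in chronic. Cfap126, also known as Flattop, had -4.74, -3.73 and -2.42 in saline, -5.74, -4.45 and -3.33 in acute and -5.51, -4.86 and -2.87 in chronic. Its groups overlapped. Cfap126 and Cfap52, which belong to the doublet microtubules, correlated with the other members at r = 0.891 and 0.894, and Cfap44 at r = 0.935. Cfap20, a doublet protein, had 0.11, 0.52 and 0.71 in saline, 0.20, 0.44 and 0.63 in acute and 0.36, 0.51 and 0.83 in chronic, with r = -0.384. Cfap43, the partner of Cfap44 in the tether, ran the other way (r = -0.455), and Cfap97 had r = -0.233.

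Among the 7 other Spag genes, Spag7 had the highest mean, with 1.89, 2.33 and 2.57 in saline, 2.07, 2.26 and 2.51 in acute and 2.07, 2.23 and 2.60 in chronic. Spag8 had the largest SD of them (0.919), with -7.34, -5.37 and -3.62 in saline, -6.68, -5.46 and -4.50 in acute and -6.97, -5.83 and -3.89 in chronic. In Spag7 the groups nearly coincided, while Spag8 had its highest levels on saline replicate 5 and chronic replicate 8.

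Foxj1 depended on the probe. The probe of higher mean, used by the rule and above background on 24 arrays, had -3.85, -3.17 and -2.63 in saline, -3.92, -3.36 and -2.90 in acute and -3.86, -3.29 and -2.62 in chronic, with an SD of 0.409. The second probe, above background on 22 arrays, had -5.53, -3.48 and -1.14 in saline, -5.32, -3.63 and -2.29 in acute and -5.63, -4.45 and -1.77 in chronic, with an SD of 1.32. The first correlated with the other 28 ciliary members at r = -0.550 and the second at r = 0.975, and the r between them was -0.594. Which probe reports Foxj1 mRNA was not tested, so statements on Foxj1 hold for a probe and not for the gene.

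**Figure D3:**
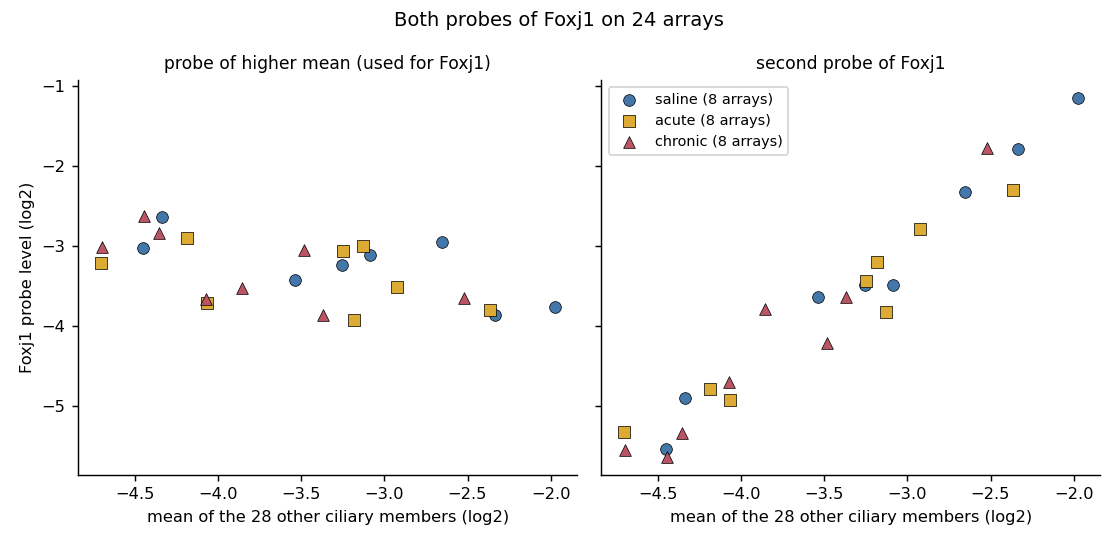
Level of each Foxj1 probe (log2) against the mean of the 28 other ciliary members (log2) on 24 arrays, by group. The probe of higher mean declines slightly from left to right (r = -0.550) and the second probe climbs with the ciliary mean from -5.63 to -1.14 (r = 0.975).

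There were 9 members with more than 1 kept probe, and in 5 of them the probes correlated with the ciliary mean with opposite signs. Both probes of Nme9 (r = 0.964 and 0.951) and of Dnah12 (0.960 and 0.848) followed the ciliary mean. Besides Foxj1, the signs differed for Dnah10 (0.229 and -0.385), Spag6 (0.460 and -0.037), Dnal4 (0.037 and -0.422) and Spag9 (0.269 and -0.523). The second Dnah10 probe was above background on 12 arrays, and it and the first had r = 0.014 with each other.

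Ttr was compared with the members because it had the largest SD of the 20902 genes. It was above background on all 24 arrays. Chronic replicate 3 was lowest (-5.62) and saline replicate 3 highest (6.28), which is a 3815-fold difference. Its lowest, median and highest levels were -4.37, 4.23 and 6.28 in saline, -3.84, 2.25 and 4.96 in acute and -5.62, -4.23 and 6.22 in chronic. The groups overlapped. The widest step in the order of arrays, 2.92, lay between 11 arrays at or below -0.95 and 13 at or above 1.98. It was narrower than the range within either side (4.67 and 4.30), so values over all arrays are given with those within each side.

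No member passed the threshold of 0.05 on the adjusted p for covariation with Ttr (two-sided permutation test with 100000 permutations for each gene, Benjamini-Hochberg over 20901 genes). The smallest adjusted p was 0.120 for Pearson's r and 0.114 for Spearman's rho. Over all genes 0.0718% passed with r above 0 and 0.0144% with r below 0. These were 18 genes in all, and the number was 0 without saline replicate 8 and over the 18 units, 7 without chronic replicate 2 or 6, 52 at most with 1 array left out (chronic replicate 5) and 92 with slide means removed. Of the 29 ciliary members 22 had r above 0, against 37.4% of all genes, and 19 had r above 0 at an unadjusted permutation p under 0.05, against 5.97%. Cfap43 had r below 0 at that p (r = -0.448), against 11.3% of genes. The median r was 0.464 over the ciliary members and -0.113 over all genes. Over the 18 units 7 ciliary members had r above 0 at that p, the median r was 0.346 and the ciliary level had r = 0.443. Of the 10 ciliary members above background on every array 4 had r above 0 at that p, and their median r was 0.028. Since the members vary together, these counts are not independent of each other.

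The closest member was Cfap52, with r = 0.628 (permutation p = 0.00093, adjusted 0.120) and rho = 0.643 (permutation p = 0.00088, adjusted 0.114). Tekt4 had r = 0.62 (permutation p = 0.00114, adjusted 0.122) and rho = 0.641. Without chronic replicates 2 and 3, the arrays farthest from the median of Ttr, r was 0.558 for Cfap52 and 0.572 for Tekt4. Fam166b (r = 0.590), Dnah1 (0.588), Dnai1 (0.580) and Tmem212 (0.578) came next among the ciliary members. Per doubling of Ttr, Tmem212 differed by 0.325 and Fam166b by 0.285 on the log2 scale, and Cfap52 by 0.082. Among the other Spag genes Spag1 had r = 0.595 (permutation p = 0.00218, adjusted 0.137).

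The r with Ttr differed between groups and slides. The ciliary level as a whole had r = 0.555 and rho = 0.597 with Ttr over 24 arrays, and r = 0.460 without chronic replicates 2 and 3. Within groups it was 0.660 in saline, 0.113 in acute and 0.589 in chronic, each over 8 arrays. Within slides it was 0.544, 0.809 and 0.648. Among the 11 arrays of low Ttr it was 0.068 and among the 13 of high Ttr 0.371. Each side covers a narrower range of Ttr than all arrays, which by itself lowers r. The split therefore cannot show where in the range the relation rests. Saline replicates 4 and 5 and chronic replicate 8 had the lowest levels of the cortical gene Slc17a7. They ranked 2nd, 1st and 4th of 24 in the ciliary level. Leaving them out narrows the range of that level, which can by itself lower r. Without them the r of the ciliary level with Ttr was 0.396. For the ciliary members the median r was then 0.307, and 5 instead of 19 had an unadjusted permutation p under 0.05.

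**Figure D4:**
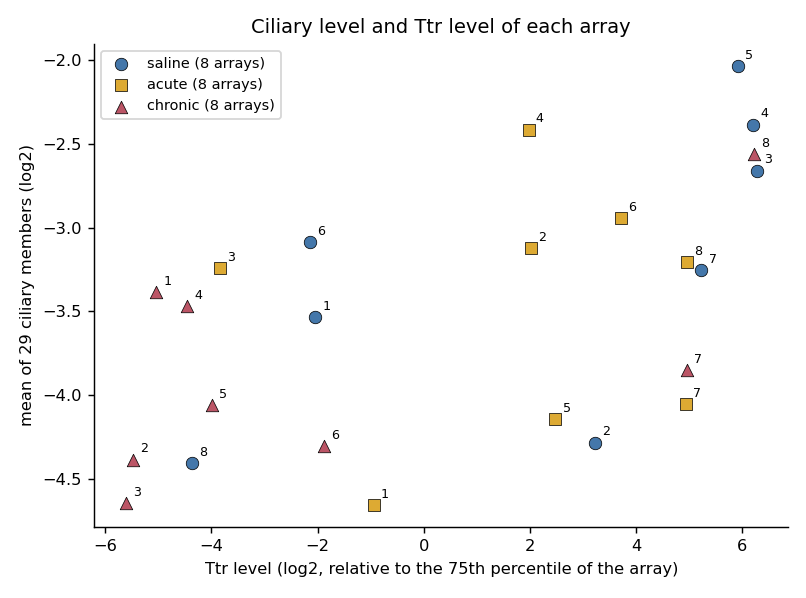
Mean of the 29 ciliary members (log2) against the Ttr level (log2, relative to the 75th percentile) on each array, by group, with replicate numbers. Saline replicates 3, 4 and 5 and chronic replicate 8 are high on both axes, while saline replicate 2, acute replicates 5 and 7 and chronic replicate 7 have high Ttr with a ciliary level between -4.28 and -3.85.

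Single arrays separated the measures. Acute replicate 7 had Ttr at 4.95 and a ciliary level of -4.05, 16th of 24. Chronic replicate 1 had Ttr at -5.05 and a ciliary level of -3.38, 12th of 24. Saline replicate 6 combined Ttr at -2.14 with a ciliary level of -3.09, 7th of 24.

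Other genes ranked closer to the ciliary level than Ttr did. Among the genes outside the set with the highest r over 24 arrays were Dynlrb2 (0.979), Ropn1l (0.967), Ccdc37 (0.962), Ankrd66 (0.960), Tjp3 (0.956), Mlf1 (0.955), Tp73 (0.955), Hdc (0.954), Ccdc19 (0.953), Iqcg (0.953) and P2rx6 (0.944). Tjp3, Hdc, Ankrd66 and P2rx6 are not on the list of motile cilia genes outside the rule, and the others named here are. Dynlrb2, a dynein light chain, ran from -4.55 to -0.40 and was above background on all 24 arrays. Hdc, histidine decarboxylase, ran from -8.48 to -2.83 and was above background on 10. Ttr stood at the 94.4th percentile of all genes.

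That list of other motile cilia genes had 53 of 99 genes kept, 31 of them with r above 0.5 with the ciliary level, against 8.29% of all genes, and 7 below 0, against 59.5%, with a median r of 0.636 against -0.111 for all genes. Genes of intraflagellar transport and the BBSome, which serve primary cilia as well, had 35 of 37 kept, 5 with r above 0.5 and 16 below 0, with a median r of 0.013. The highest there were Ift27 (0.67), Ift52 (0.63), Bbs1 (0.61) and Bbs2 (0.57), all with an SD at or below 0.27.

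Markers of other tissue were also set against the ciliary level, and the mean of the kept choroid plexus genes had r = 0.743 with it. Of the choroid plexus list 15 of 26 genes were kept, with Calml4 (0.88), Folr1 (0.86), Msx1 (0.84) and Otx2 (0.78) the highest in r. Of the 15 kept genes 11 had r above 0.5 (8.29% of all genes) and 3 below 0 (59.5% of all genes). Their summed signal, in multiples of the array's 75th percentile, ranged from 3.28 to 83.8 in saline, 3.16 to 35.4 in acute and 2.44 to 86.8 in chronic. All 8 genes of thalamus or septum were kept, none had r below 0, 4 had r above 0.5, and Zic1 (0.81) and Tcf7l2 (0.70) led, with summed signals of 1.55 to 8.15 in saline, 1.25 to 2.49 in acute and 1.15 to 2.11 in chronic. Of the proliferation list 6 of 8 genes were kept and 3 had r above 0.5, with Aurkb (0.92), Cdk1 (0.66) and Bub1 (0.57), and the summed signals were 0.169 to 0.365, 0.166 to 0.408 and 0.164 to 0.293. The part of these tissues in the ciliary values was not tested.

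All 9 cortical genes had r below 0, against 59.5% of all genes, and Slc17a7, which loads glutamate into vesicles, had r = -0.516 over 24 arrays but -0.076 without saline replicates 4 and 5 and chronic replicate 8. Those 3 arrays had Slc17a7 at -6.22, -7.35 and -8.50, the lowest levels of the 24 arrays. They ranked 2nd, 1st and 4th in the ciliary level. Leaving them out narrows both ranges, which can by itself weaken r. Summed signals of the cortical list were 0.980 to 3.97 in saline, 1.84 to 3.27 in acute and 1.15 to 4.55 in chronic. Of 11 kept striatal genes 10 had r below 0, against 59.5% of all genes, with Ppp1r1b at -0.593 (-0.582 without those arrays). Summed signals of the striatal list were 45.6 to 170 in saline, 83.4 to 155 in acute and 79.5 to 153 in chronic. Astrocyte genes had r above 0.5 for 2 of 9, Slc1a3 and Aqp4, and Aqp4 is also on the ependymal list. Oligodendrocyte genes had it for 0 of 8 and microglial genes for 1 of 8 (Aif1). The count was 0 of 9 for endothelial and mural genes and 0 of 5 kept of 8 for blood genes. Of all genes 8.29% had r above 0.5. Single genes for other sources of RNA had r of 0.437 (Slc17a6), 0.169 (Gfap), -0.301 (Mbp) and -0.044 (Hbb). By the rule of the filter, each kept gene of these lists was well above background on some arrays. Their part in the ciliary values was not tested.

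No member passed the threshold of 0.05 between saline and acute arrays. In the limma fit over all genes 0.0% of 20902 genes were called in this comparison, lower or higher, while 202 were lower and 131 higher at an unadjusted p under 0.05. The ciliary members had a median difference, acute minus saline, of -0.51, and 25 of 29 were below 0, against 50.9% of all genes and a median of -0.002. At an unadjusted p under 0.05, 2 of them were lower, against 0.966% of genes, and none was higher, against 0.627%. These were Cfap126 (-0.92 ± 0.36 SE, limma adjusted p = 0.9997) and Rsph9 (-0.65 ± 0.30 SE). Within slides the median was -0.30, -0.40 and 0.20 on slides 1, 2 and 3. Saline replicates 4 and 5 ranked 2nd and 1st of 24 in the ciliary level, so leaving them out by itself lowers the saline mean. Without them and chronic replicate 8 the median was -0.08, with 19 of 29 below 0 and none at an unadjusted p under 0.05. Their number was 0 without acute replicate 7 and with the 24 arrays as separate samples, and 8 without the unit of saline replicates 1 and 8 or that of acute replicates 4 and 6. The 7 other Spag genes had a median of -0.03.

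Chronic arrays lay farther from saline, again with no member past the threshold and 0.0% of genes called in either direction, while 283 were lower and 316 higher at an unadjusted p under 0.05. The median difference of the ciliary members, chronic minus saline, was -0.63, and 24 of 29 were below 0, against 43.5% of all genes and a median of 0.02. At an unadjusted p under 0.05, 12 of the 29 were lower, against 1.35% of genes, and none was higher, against 1.51%. Dnah1, one of the 12, and Dnah3, one of the 24, met the filter in saline and acute but not in chronic. The filter thus leans toward lower chronic values for them. The 7 other Spag genes had a median of -0.06, and all 7 were below 0, with 0 at that p. With Spag8 counted as a ciliary member the median over 30 was -0.60. Over the 10 ciliary members above background on every array the median was -0.11, and 3 were lower at that p. The members vary together, so these counts are not independent of each other.

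**Figure D5:**
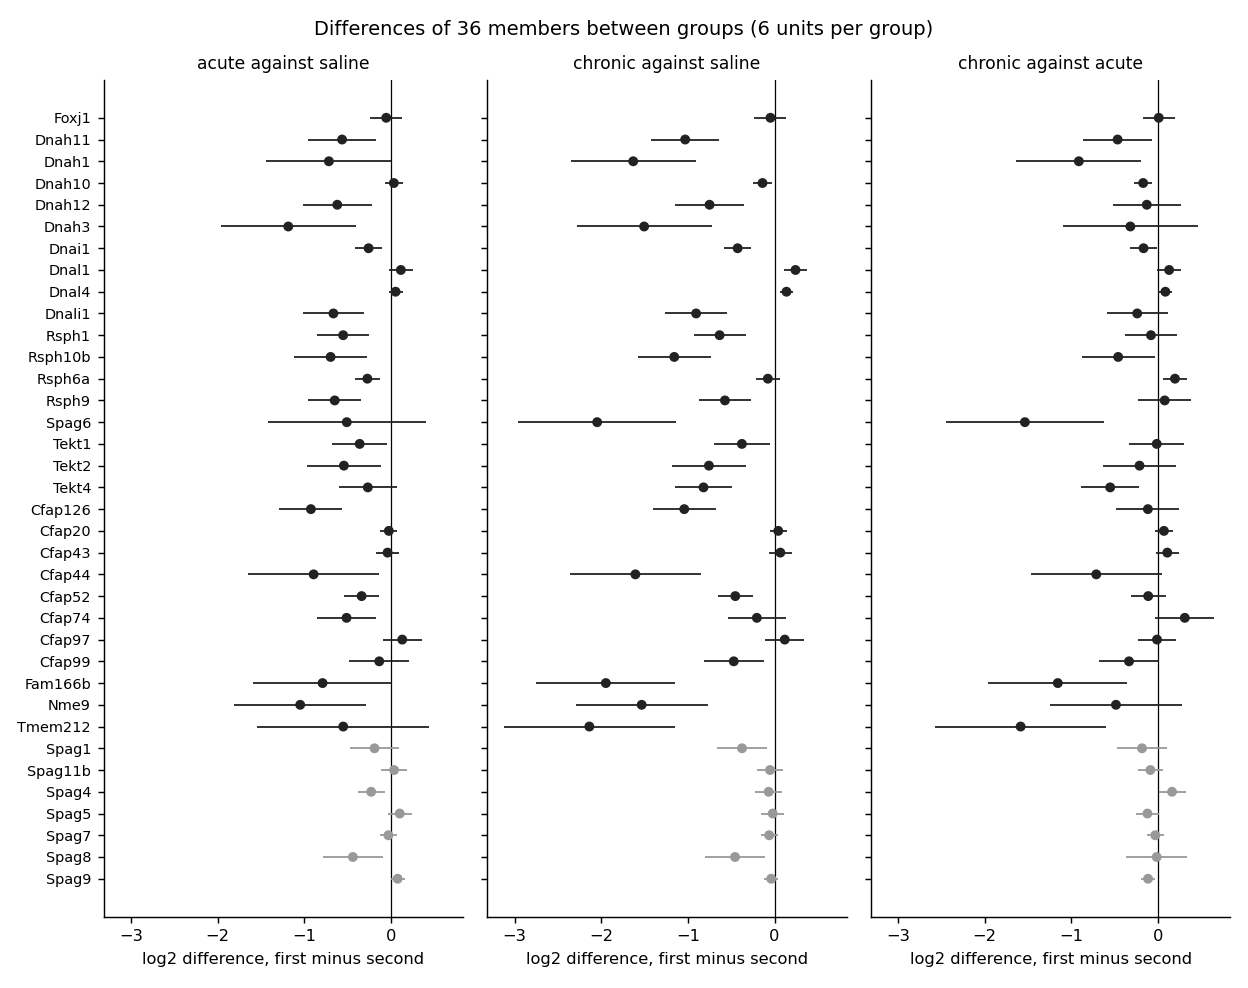
Differences between groups (log2, first minus second, point and SE) for the 36 members by role, from limma with 6 units per group; grey marks the 7 other Spag genes. Most variable members lie left of 0 in the comparisons with saline, and none passed the threshold of 0.05 on the adjusted p.

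The 12 came from nearly all roles. Cfap126 had the smallest p, with unit means of -4.73 ± 0.50 (SD, n = 6) in chronic and -3.69 ± 0.57 in saline and a difference of -1.04 ± 0.36 SE (limma, adjusted p = 0.9995). For Rsph10b the difference was -1.16 ± 0.42 SE and for Dnai1 -0.43 ± 0.16 SE. Dnah11 had -1.03 ± 0.40 SE, Dnali1 -0.90 ± 0.35 SE, Tekt4 -0.82 ± 0.33 SE and Cfap52 -0.45 ± 0.20 SE. The most variable members had the largest differences and the largest errors: -2.14 ± 0.99 SE for Tmem212, -2.05 ± 0.91 for Spag6, -1.95 ± 0.80 for Fam166b, -1.63 ± 0.72 for Dnah1 and -1.61 ± 0.75 for Cfap44. Dnah1 was well above background on 4 saline, 5 acute and 3 chronic arrays, so most of its chronic levels did not reach that mark. The 95% interval of Tmem212 ran from -4.22 to -0.05. The steady members showed small values: 0.04 ± 0.10 SE for Cfap20, 0.14 ± 0.08 for Dnal4 and -0.14 ± 0.11 for Dnah10. Dnal1 had the smallest p among members that were higher, with 0.24 ± 0.14 SE.

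Foxj1 had a difference of -0.05 ± 0.18 SE by the probe of higher mean and of -1.21 ± 0.49 SE by the second probe (limma, adjusted p = 0.9992), past an unadjusted threshold of 0.05 for the second probe but not for the first. Nme9 had -1.53 ± 0.76 SE and Rsph1 -0.63 ± 0.30 SE, and neither was under an unadjusted threshold of 0.05 in the fit with 1 probe per gene. In the limma fit of each probe alone the second Nme9 probe (-1.28 ± 0.48 SE) and the Rsph1 probe were under it.

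The chronic difference was not the same on every slide or with every array. Within slides the median over the ciliary members was -0.37 on slide 1, -1.29 on slide 2 and 0.52 on slide 3. Slide 3 held 2 chronic and 2 saline arrays, among them chronic replicate 8. Tmem212 showed -2.63, -3.83 and 2.21 on the slides in turn, and Rsph10b -0.86, -2.51 and 0.91. With Ttr as a covariate the median was -0.47, 27 of 29 were below 0 and none had an unadjusted p under 0.05. Saline replicates 4 and 5 and chronic replicate 8 ranked 2nd, 1st and 4th of 24 in the ciliary level. Leaving them out by itself lowers both group means. Without them the median was -0.33 and 24 of 29 were below 0, and Cfap126 alone had an unadjusted p under 0.05 (-0.90 ± 0.37 SE). Without saline replicate 3 or saline replicate 4, 4 members were lower at that p, without chronic replicate 3, 6 were, and without saline replicates 1 and 8, which form 1 unit, 18 were. With the 24 arrays as separate samples it was 3.

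Medians of the same sign were found in several other lists in this comparison. Of all genes 43.5% were below 0, and 1.35% were lower at an unadjusted p under 0.05. Of 53 other motile cilia genes 44 were below 0, 13 at an unadjusted p under 0.05, with a median of -0.25; Dynlrb2 had -1.27 ± 0.40 SE and Ropn1l -0.79 ± 0.36 SE. Of 15 choroid plexus genes, Ttr among them, 13 were below 0, 6 at an unadjusted p under 0.05, with a median of -0.81. Folr1 had -2.36 ± 0.86 SE. All 8 genes of thalamus or septum were below 0 (2 at that p, median -0.50). All 6 proliferation genes were below 0 (1 at that p, median -0.31). Of 14 genes on the ependymal list 10 were below 0 (0 at that p, median -0.08). Astrocyte, oligodendrocyte, microglial and blood lists had medians between -0.10 and -0.06. The striatal and endothelial lists had 0.15 and 0.07. All 9 cortical genes were above 0, with a median of 0.54. The genes of intraflagellar transport and the BBSome had a median of 0.02, with 14 of 35 below 0. No gene of these lists passed the threshold, and the part of choroid plexus or cortical RNA in the ciliary differences was not tested.

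Between chronic and acute arrays, which share no array with each other but are both compared with the same saline arrays above, no member passed the threshold, against 0.0% of genes. At an unadjusted p under 0.05 no ciliary member was lower, against 0.866% of genes (181), or higher, against 1.62% (338). The median difference, chronic minus acute, was -0.17 over the ciliary members, with 21 of 29 below 0, against 43.5% of all genes. Among the 21 were Dnah1, Dnah3 and Cfap99, which met the filter in acute but not in chronic. Spag6 had -1.54 ± 0.91 SE (smallest p of a lower member) and Dnah10 -0.17 ± 0.11 SE. Rsph6a had the smallest p of a higher member, with 0.20 ± 0.14 SE. Without acute replicates 4 and 6, which form 1 unit, the median was -0.001. On slides 1, 2 and 3 alone it was -0.06, -0.91 and 0.36.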

How the data were processed

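RNA of 24 pieces of rat left dorsal striatum was labelled with Cy3 and hybridised to 1-colour Agilent arrays, 8 per group. Intensity values and background flags are those the authors deposited as scanner output of Agilent Feature Extraction 10.7 (per the submitters' processing notes), background-subtracted within an array and not scaled between arrays, per the file headers. The authors' deposited value table holds log2 values whose normalization is not given in the sources used here, and it served only as an alternative.

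From the processed signal, log2 values were taken minus each array's 75th percentile over non-control spots. Outlier spots were left out (312 probe values missing, dropped gene by gene), spots of a probe were averaged, and a probe was kept if well above background on at least 0.5 of the arrays of some group. Of 45598 probes 26259 were kept, and the probe of highest mean stood for a gene (20902 genes). Groups were compared with limma 3.58.1 in R 4.3.3 in 1 fit of 18 units, with Benjamini-Hochberg adjustment over all genes. Correlations used scipy 1.17.1 and numpy 2.4.6, with a smallest possible p of 1e-05. On simulated data the limma step recovered 83% of shifts of 1 and 97% of shifts of 2 (log2, acute against saline, 20902 genes), and the Ttr step 25% of genes at r = 0.6 and 100% at r = 0.9. Recovery among the ciliary members, whose median SD was 0.827 against 0.278 for all genes, was not tested. The number of arrays limits the precision.

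Genes given by group are Foxj1, Nme9, Tmem212, Fam166b, the member of each role with the highest mean and the largest SD, and that with the smallest p in each direction of a comparison. The genes named for their likeness are those of highest r among the 12 closest, of which 1 is not reported here. Members, marker lists and rules were chosen with earlier results of these data known. Alternatives were another normalization, background, filter, probe choice or table, 24 arrays as samples, slide or Ttr in the model, and each unit or array left out. Testing each probe alone and setting aside saline replicates 4 and 5 and chronic replicate 8 were added after seeing the data.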

Additional observations from a re-analysis of the deposited data

Results flagged for a closer look

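Of 114 groups of 8 arrays tested (38 genes and levels), 8 had 1 array farther from its nearest neighbour than Dixon's 95% critical value allows, and chance gives about 1 in 20 groups. Chronic replicate 8 was highest in its group for Cfap126 (-2.87, next -4.34), Dnai1 (-3.99, next -4.48) and Tekt4 (-2.78, next -3.89). Cfap99 was lowest on acute replicate 1 (-9.16, next -6.93). Rsph6a was lowest on acute replicate 4 (-3.32, next -2.95). Spag1 was highest on acute replicate 7 (-3.39, next -4.40). Spag5 was lowest on acute replicate 2 (-2.52, next -2.16), and Spag7 was highest on chronic replicate 2 (2.60, next 2.31).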

How the results depend on the processing

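No member passed the adjusted threshold in a group comparison under any setting run. For Ttr 2 members passed after each slide's mean was removed, and none under the other settings. The median difference over ciliary members was 0.20 (acute against saline) and 0.52 (chronic against saline) on slide 3 alone. On slide 2 alone it was -1.29 (chronic against saline) and -0.91 (chronic against acute). With each unit left out in turn it ran from -0.72 to -0.28, from -0.77 to -0.44 and from -0.34 to -0.001 for acute against saline, chronic against saline and chronic against acute. The median r over pairs was 0.416 with normexp, 0.378 with the mean of kept probes, 0.365 over 18 units, 0.440 with the probe of largest SD and -0.037 for genes above background on every array, where fewer members are left. The median SD was 0.629 with normexp, 0.347 for genes above background on every array, 0.63 over 18 units and 0.654 without saline replicates 4 and 5 and chronic replicate 8. Without those 3 arrays the median r with Ttr was 0.307 and that of the ciliary level 0.396, and for genes above background on every array the median r was 0.028. Chronic against acute, Foxj1 (0.0078) was -0.025 with quantile normalization, -0.044 with normexp, -0.023 in the authors' table, -0.18 with the mean of probes, -0.36 with the probe of largest SD and -0.091 with Ttr as a covariate. With 1 unit left out it ran from -0.071 to 0.12, and from -0.17 to 0.024 (acute) and -0.17 to 0.065 (chronic) against saline. Its r with Ttr was 0.605 with the mean of probes and 0.630 with the probe of largest SD. Acute against saline, Spag6 was 0.12 with slide as a block and ran from -0.90 to 0.091 with 1 unit left out; Tmem212, Fam166b and Tekt4 were 0.40, 0.16 and 0.15 without the 3 arrays. Chronic against acute, Cfap126 was 0.066 with Ttr as a covariate and ran from -0.34 to 0.087. The cause of these shifts was not tested. No paired analysis was possible because replicate numbers were given in accession order and pair no arrays across groups.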
